A study of Mus musculus with 6 samples.

Results

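The visual cycle genes of the retinal pigment epithelium (RPE) were taken here as 9 genes listed by symbol, and each of the 9 was found among the 33924 genes of the table for poly(A)-selected RNA of mouse RPE/choroid. The libraries came from C57BL/6J mice, with 3 young mice labelled 1 to 2 months old and 3 aged mice labelled 20 to 24 months old by title, for which a further label gives 22 to 24 months. No mouse carried a further allele or treatment according to the labels, each sample held 2 eyes, and the labels give the mice as male whereas the study's methods describe both sexes and a slightly older range for the young. The tissue was scraped from the sclera after the neural retina had been lifted off, so it held RPE together with choroid. The table gives 1 value for each gene that was used here, the authors' mean of the normalized counts over all 6 libraries. Values for single mice, their spread and the levels at each age were not analysed here, so no order or ratio reported below carries a test, and neighbouring values could not be told apart by replicate error. The means of all genes add up to 40816668 normalized counts, and how deeply each library was sequenced is unknown here.

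The visual cycle returns the chromophore of the photoreceptor opsins to its light-sensitive form. All-trans-retinol that leaves the photoreceptors, or arrives with the blood, is esterified by LRAT in the RPE, and the ester is converted by RPE65 to 11-cis-retinol. A dehydrogenase, chiefly RDH5, oxidizes this to 11-cis-retinal, which CRALBP, the product of Rlbp1, binds and shields on its way back to the photoreceptors. RDH10 and RDH11 are further retinol dehydrogenases, STRA6 is the membrane receptor that takes up retinol from its blood carrier, and RGR and peropsin (Rrh) are opsins of the RPE that bind all-trans-retinal.

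The 9 genes were among the abundant transcripts of the tissue. Together they held 1.64% of all normalized counts, and 5 of them, Rgr, Rpe65, Rlbp1, Rdh10 and Lrat, were among the 50 genes with the highest means. Even the lowest member, Rdh11, lay above 94.2% of the 18479 genes with a mean of at least 10, and above 90.2% when genes were ranked per kilobase of transcript. The median of the 9 means was 50958.3 normalized counts, beside 668 over those 18479 genes. In whole tissue a gene's level depends both on the number of cells that express it and on the RNA in each of them, which cannot be told apart. The members were unequal among themselves, with the 3 highest holding 77.0% of their summed counts and the 3 lowest 3.25%.

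**Figure D1:**
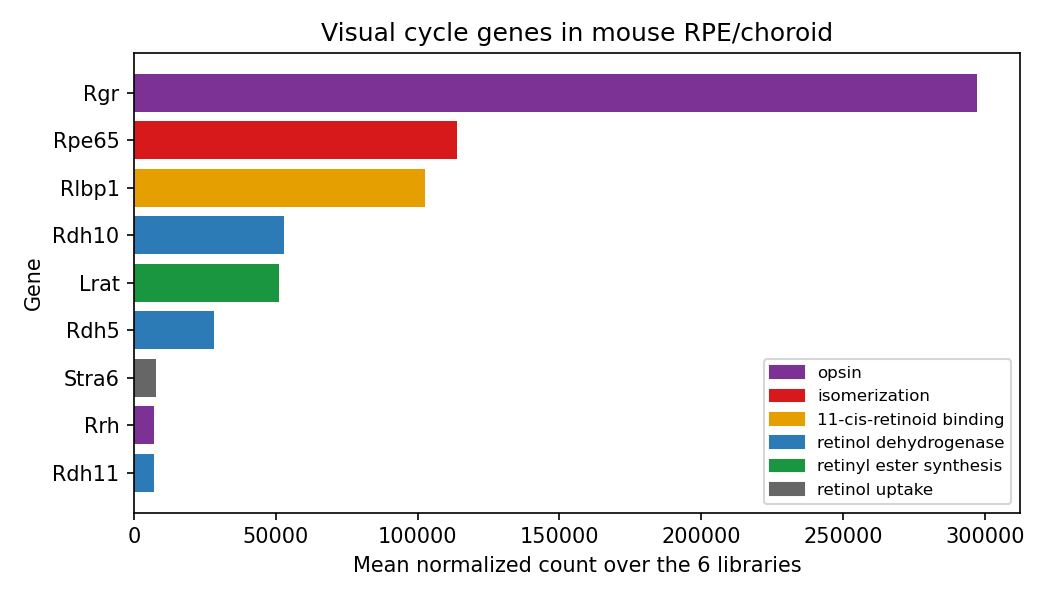
Mean normalized count over the 6 libraries (x axis, from 0) of each of the 9 genes, with bars coloured by role and no error bar, as single libraries were not analysed. Rgr stands at 297444 normalized counts, above Rpe65 at 113929.8 and Rlbp1 at 102636, and Stra6, Rrh and Rdh11 form the low end.

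**Figure D2:**
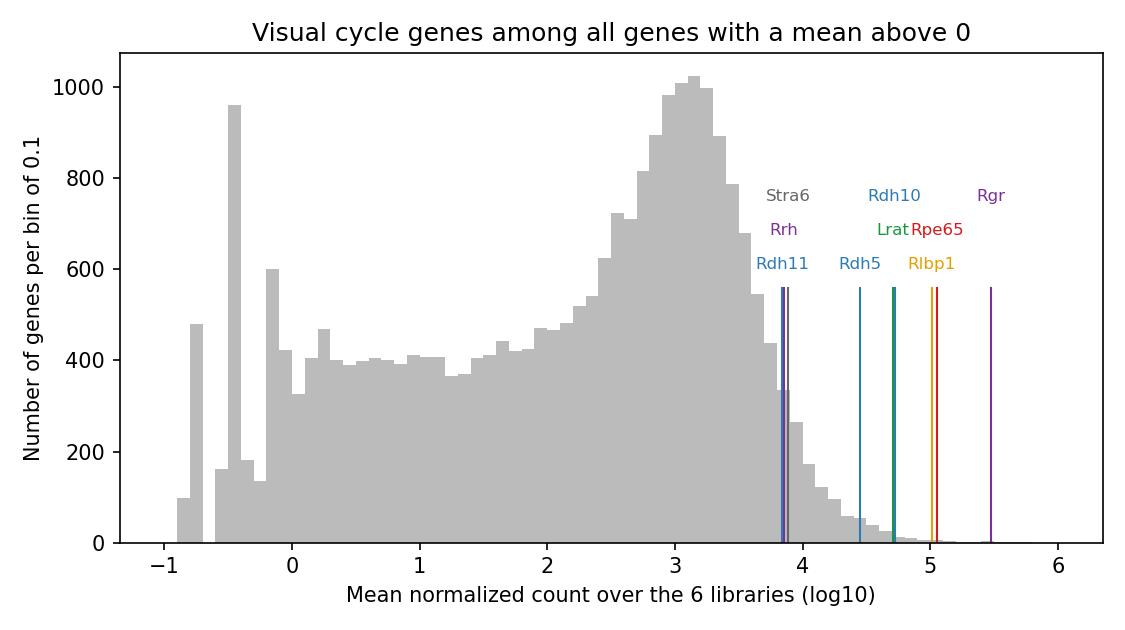
Number of genes (y axis) in each bin of 0.1 of the log10 mean normalized count (x axis), for the 25517 genes with a mean above 0, with a line for each visual cycle gene. The 9 lines lie in the right tail, with Rdh11, Rrh and Stra6 at its near edge and Rgr close to its far end.

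The stretches of DNA before the transcript starts of Rgr, Rpe65, Rlbp1 and Lrat are shown because the first 3 had the highest levels and Lrat, which acts just before Rpe65, had a start of another base composition. They are RefSeq sequences of GRCm38.p6, written 5′ to 3′ on the strand of the gene, and they end before the first annotated transcript base. The Rgr stretch is chr14:37049015-37049264 on the minus strand, the Rpe65 stretch chr3:159598931-159599174 on the plus strand, the Rlbp1 stretch chr7:79387049-79387277 on the minus strand and the Lrat stretch chr3:82903975-82904224 on the minus strand. No annotated exon overlaps any of the 4. Capitals mark the letters TAATCC, the core bound by OTX2, the letters CATGTG or CACGTG, the E-boxes bound by MITF, and the TATA box letters TATAAA, each on either strand.
Rgr: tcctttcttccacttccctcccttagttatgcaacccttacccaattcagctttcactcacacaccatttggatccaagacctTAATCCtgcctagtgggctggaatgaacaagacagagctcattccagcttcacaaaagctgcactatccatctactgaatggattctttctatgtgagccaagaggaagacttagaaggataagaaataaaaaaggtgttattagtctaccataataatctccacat
Rpe65: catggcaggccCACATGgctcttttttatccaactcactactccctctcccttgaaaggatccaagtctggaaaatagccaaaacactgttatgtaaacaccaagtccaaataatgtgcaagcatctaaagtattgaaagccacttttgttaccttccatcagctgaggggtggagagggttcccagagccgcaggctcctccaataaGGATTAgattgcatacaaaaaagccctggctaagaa
Rlbp1: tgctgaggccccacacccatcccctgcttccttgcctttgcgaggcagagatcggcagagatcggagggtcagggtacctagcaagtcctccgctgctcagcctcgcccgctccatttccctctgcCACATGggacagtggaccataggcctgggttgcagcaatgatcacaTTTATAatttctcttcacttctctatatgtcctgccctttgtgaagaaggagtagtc
Lrat: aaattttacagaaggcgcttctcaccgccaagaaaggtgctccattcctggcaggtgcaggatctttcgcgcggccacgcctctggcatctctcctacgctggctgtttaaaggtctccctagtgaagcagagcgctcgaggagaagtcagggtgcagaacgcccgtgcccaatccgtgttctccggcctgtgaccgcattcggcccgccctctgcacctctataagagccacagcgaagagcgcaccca

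OTX2 and MITF are transcription factors that define RPE identity, and their own genes had means of 10880.4 and 5647 normalized counts. Start windows of 300 bases (250 before and 50 after each start) were given for 8 of the 9 genes, as 12 windows, since Stra6 has 4 starts and Rdh11 has 2. The OTX2 core occurred in the windows of 2 members, Rpe65 and Rgr. Counted from the start as base 0, it began at -42 in Rpe65 and at -167 in Rgr. These starts are those of RefSeq, and for each of the 8 genes they differ from the 5′ end of the gene span given below, by amounts that vary between genes. Matches and their positions thus depend on the annotation used. An E-box occurred in 4 members, with the letters CATGTG in Rpe65, Rlbp1 and Rgr and the letters CACGTG in the second start of Rdh11. The E-box of Rgr began at -5 and ended on the start itself, and so is not complete in the stretch shown. Rpe65 and Rgr were thus the 2 of 8 genes with both an OTX2 core and an E-box, a pair that 1.52% of the 27018 genes with a window held in 1 of their windows. Over all genes the OTX2 core was found in 8.14% and an E-box of either kind in 22.8%. The letters TATAAA were found in Rlbp1, where they began at -78 on the other strand, and in Rrh, at -231, beside 15.7% of all genes. Whether either match works as a TATA box was not tested. Lrat, Rdh5 and Stra6 held none of these letters in their windows, which says only that the letters are not in these windows.

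**Figure D3:**
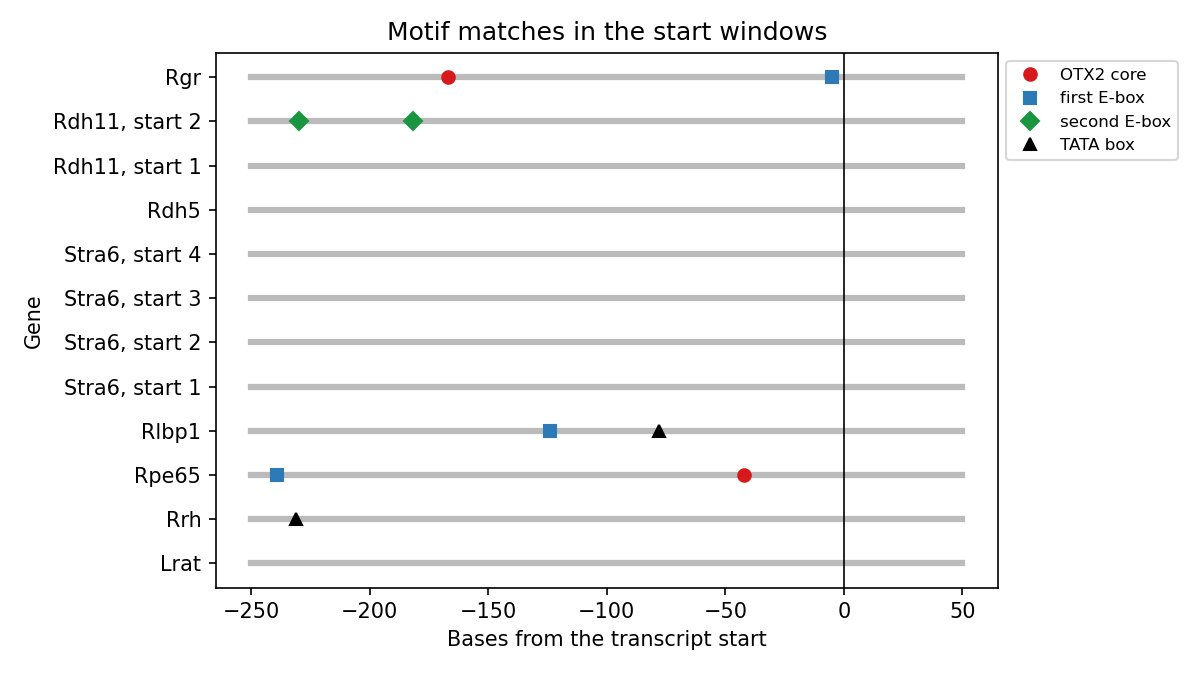
Each grey line is 1 start window of a member, drawn from 250 bases before to 50 bases after the transcript start (x axis, start at 0), and symbols show where a motif begins. Red circles for the OTX2 core appear in Rgr and Rpe65, the first E-box (blue squares) in these and Rlbp1, and 7 of the 12 windows hold no symbol.

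The windows differed in base composition. The Rgr window had a GC content of 43.0% and 0 CpG pairs, and the Rpe65 window 45.3% and 1 CpG pair. The Rrh window had the lowest GC content, 38.7%, and 4 CpG pairs. The Lrat window had 60.7% GC and 21 CpG pairs, against a median of 52.7% and 7 CpG pairs over 32841 windows. Of the genes with abundant transcripts, Rgr and Rpe65 thus had starts poor in CpG and Lrat a start rich in it. The Rlbp1 window had 57.3% GC and 8 CpG pairs and the Rdh5 window 58.3% and 5 CpG pairs, while Rdh10 had no window.

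Lrat encodes the acyltransferase that makes retinyl esters, the substrate of the isomerase. Its mean was 50958.3 normalized counts, the 48th highest of all genes. The gene (ENSMUSG00000028003) occupies chr3:82892579-82903973 of GRCm38, minus strand, with 1 annotated transcript of 2 exons. Of the 5351 bases of that transcript 13.0% are coding. As a count can also depend on transcript length, levels are given per length too, and per kilobase of the longest coding transcript Lrat had 9523 normalized counts. Division by length lowers long transcripts: over all coding genes with a mean of at least 10, the median level fell from 485 normalized counts per kilobase in the group with the shortest transcripts to 253 in the middle group and 166 in the longest, to which Lrat and Rgr belong. A noncoding antisense gene, Rbm46os, spans the whole gene on the other strand.

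Rpe65 encodes the isomerohydrolase that forms 11-cis-retinol. Its mean was 113929.8 normalized counts, the 17th highest of all genes. The gene (ENSMUSG00000028174) occupies chr3:159599175-159625321, plus strand, and its longest coding transcript has 15 exons and 1863 bases, of which 85.8% are coding. Per kilobase of this transcript Rpe65 reached 61154 normalized counts, 6.42 times the level of Lrat. With the coding length alone the ratio was 0.969, so the distance between these consecutive enzymes depended on whether untranslated bases were counted.

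Rlbp1 encodes CRALBP, which Müller glia of the neural retina make as well as the RPE. Its mean was 102636 normalized counts, the 20th highest of all genes. The gene (ENSMUSG00000039194) occupies chr7:79374870-79387048, minus strand, with 8 annotated transcripts of which 7 are coding. Per kilobase of its longest coding transcript it had 47916 normalized counts. The level of Rpe65 was 1.28 times that of Rlbp1 on this scale, 0.849 times with the mean transcript length and 0.660 times with the coding length. The order of Rpe65 and Rlbp1 thus turned with the length used.

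The opsins lay far apart, and Rrh was among the 3 lowest of the 9 genes on each scale. Rgr, whose product acts as a light-dependent isomerase, had a mean of 297444 normalized counts, the 5th highest of all genes and 0.729% of all counts. Rrh, which encodes peropsin, had a mean of 7115 normalized counts, the 1024th highest. Per kilobase of the longest coding transcript Rgr had 63232 and Rrh 4045 normalized counts, a ratio of 15.6, and the ratio was 54.0 with the coding length. Rgr (ENSMUSG00000021804) occupies chr14:37034909-37048964, minus strand, and only 16.6% of the 4704 bases of its longest coding transcript are coding. Rrh (ENSMUSG00000028012) occupies chr3:129804408-129822587, minus strand, with 57.5% of 1759 bases coding. Rgr was the highest of the 9 genes as a count and under each of the 3 lengths used, at 1.03 to 5.33 times the level of Rpe65 per kilobase.

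Of the retinol dehydrogenases 3 were members, and their levels spanned a wide range. Rdh5, whose product oxidizes 11-cis-retinol, had a mean of 28191.6 normalized counts. Rdh10, whose product oxidizes all-trans-retinol, had a mean of 52732 normalized counts. Rdh11, whose product acts on both cis and all-trans retinols, had a mean of 6885 normalized counts. Per kilobase of the longest coding transcript the levels were 22409.9 for Rdh5, 14701 for Rdh10 and 2111 for Rdh11. Rdh11 was the lowest of these genes on each scale, at 1 part in 4.07 to 10.6 of the level of Rdh5 per kilobase. Rdh5 was 1.52 times Rdh10 per kilobase of the longest coding transcript and 0.573 times with the coding length, so their order was not settled.

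Rdh5 (ENSMUSG00000025350) occupies chr10:128913593-128922888, minus strand, and overlaps Bloc1s1 on the same strand over 5007 bases. Of the 2850 words of 50 bases in its transcripts 79.6% occur in no other gene, so some of its reads could be shared with Bloc1s1, whose mean was 535 normalized counts, or with Gm7936. Rdh10 (ENSMUSG00000025921) occupies chr1:16105774-16133734, plus strand, and Rdh11 (ENSMUSG00000066441) chr12:79174337-79192293, minus strand. In both of these each word of 50 bases is their own. The same share was at least 99.4% for the other 6 members. The coding sequences of the 3 dehydrogenases were identical at 46.3% to 48.1% of aligned positions, gaps included, and those of Rgr and Rrh at 44.5%. Over the 32 other pairs of members this share ran from 25.5% to 48.6%. As pairs of unlike function reached shares as high, this measure cannot show whether the pairs of like function are related in sequence.

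Stra6 encodes the receptor for retinol-binding protein, through which the RPE takes up retinol from the choroidal blood. Its mean was 7693 normalized counts, the 924th highest of all genes. The gene (ENSMUSG00000032327) occupies chr9:58063788-58153996, plus strand, with 14 annotated transcripts and 19 exons in the longest coding one. Per kilobase of this transcript it had 2500.1 normalized counts, and the level of Rpe65 was 24.5 times as high, or 14.9 times with the mean transcript length and 18.6 times with the coding length. The annotated span overlaps Ccdc33, with a mean of 164 normalized counts, on the other strand. Stra6 lay above Rrh and Rdh11 as a count and was the lowest of the 9 with the coding length, at 3827 normalized counts per kilobase.

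**Figure D4:**
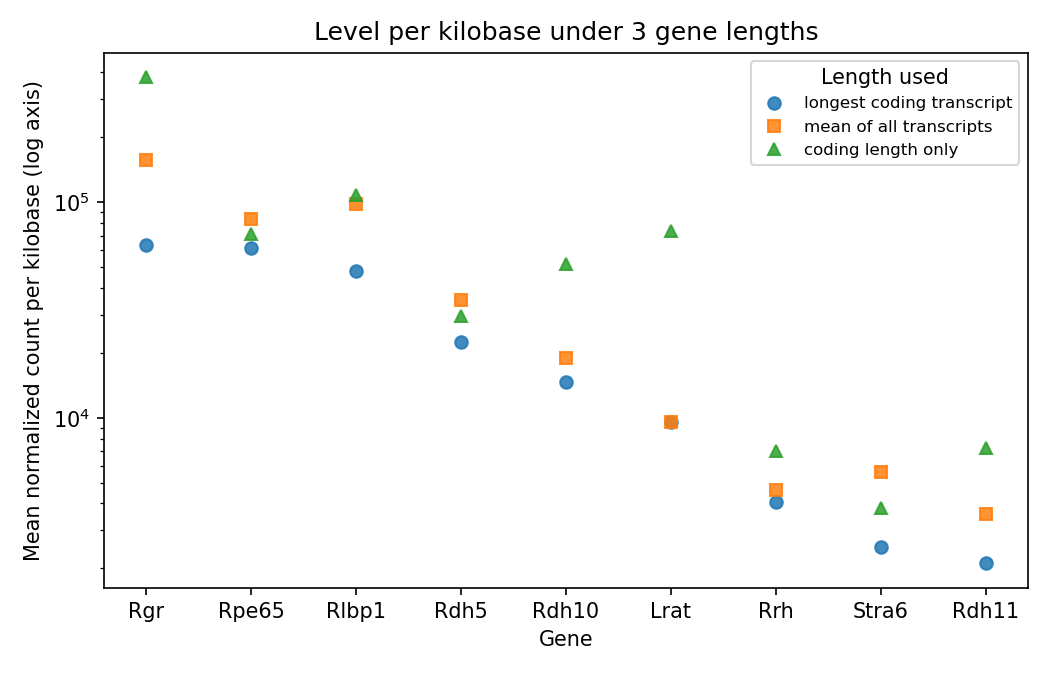
Mean normalized count per kilobase (y axis, log scale) of each member with the length of the longest coding transcript (circles), the mean length of all its transcripts (squares) or the coding length (triangles). Rgr is at the top for each symbol, Lrat moves from 9523 to 73533 between circle and triangle, and Rrh, Stra6 and Rdh11 stay below the other 6 genes.

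The division of the members into 6 abundant and 3 less abundant genes, made after their values were seen, held as a count and with each of the 3 lengths. Between Lrat, the lowest of the 6 per kilobase of the longest coding transcript, and Rrh, the highest of the 3, the levels fell from 9523 to 4045 normalized counts per kilobase. Over the 9 genes the highest level was 30.0 times the lowest on this scale and 99.3 times with the coding length. Of the 36 pairs of members 29 kept their order when the coding length was used, and 34 with the mean transcript length.

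For comparison, 30 other retinoid genes were taken, of which 28 had a mean of at least 10. They comprised genes of photoreceptors and Müller glia, genes of binding and transport, and enzymes of general retinoid metabolism. Over all 30 of them, with no minimum, the median was 440 normalized counts per kilobase, against 14701 for the 9 members and 225 over the 17913 genes with a length and a mean of at least 10. Ttr, the carrier that holds retinol-binding protein in the blood and is also made by the RPE, was the highest, with 397586 normalized counts and 5.30 times the level of Rgr per kilobase of the longest coding transcript, 2.14 times with the mean transcript length and 2.37 times with the coding length. Of the 8 binding and transport genes 6 were low, from 29.8 normalized counts for Rbp7 to 420 for Crabp2. Rbp4, the blood carrier that binds STRA6 and is made mostly in the liver, had a mean of 35.3 normalized counts.

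Among 12 other enzymes of general retinoid metabolism none reached the level of Rdh11, the lowest member, per kilobase of the longest coding transcript, whereas among the genes listed with photoreceptors and Müller glia Degs1 (9953 normalized counts per kilobase) and Dhrs3 (2564) exceeded it. The dehydrogenase Rdh14 came closest, at 1229 normalized counts per kilobase, followed by Dhrs4 at 849 and the saturase Retsat at 723. Rdh7 and Dhrs9 fell under a mean of 10, with 0.323 and 4.95 normalized counts. Bco1, listed in the table as Bcmo1, which cleaves beta-carotene to retinal, had 21.03 normalized counts. The level of Rdh11 was 1.72 times that of Rdh14 per kilobase of the longest coding transcript, 2.92 times with the mean transcript length and 4.002 times with the coding length.

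Genes of the photoreceptor side of the cycle were also present. Abca4, the flippase of photoreceptor discs that the RPE expresses as well, had 13221 normalized counts. Rbp3, the carrier of retinoids between photoreceptors and RPE, had 6898 normalized counts. The photoreceptor dehydrogenases Rdh8 and Rdh12 had 324 and 1794 normalized counts, and the cone opsins Opn1sw and Opn1mw 2558 and 645. Degs1, proposed as an isomerase of Müller glia, had 20384 normalized counts, and Awat2, an ester synthase of those cells, 43.5. Dhrs3, a retinal reductase, had 5991 normalized counts.

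Markers of neural retina cells were measured beside the members. Each of the 10 rod markers had a mean of at least 10, the lowest being Cnga1 with 4417 normalized counts, and they held 0.828% of all counts. The 7 Müller glia markers ran from 310.3 for Kcnj10 to 73484 for Glul and held 0.270%. Müller glia also make Rlbp1 and Rgr, and per kilobase, over the 3 lengths, Rlbp1 was 1.29 to 1.82 times Glul and Rgr 2.07 to 5.78 times Glul. Glul, Vim and Slc1a3 are not restricted to Müller glia, while Aqp4, with 1499.5 normalized counts, and Kcnj10 are markers of these cells in the retina. What part of the Rlbp1 and Rgr counts came from retinal cells was not tested.

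Other RPE genes were given by a list of 20, and each had a mean of at least 10. Their median was 5624 normalized counts per kilobase, and 7 of the 20, led by Ttr and the pigment genes Dct and Pmel, lay above the members' median of 14701. The lowest was Best1, a chloride channel of the RPE, with 81.8 normalized counts. Among the regulators of RPE identity Otx2 was the highest, at 4198 normalized counts per kilobase, followed by Mitf at 1157, Lhx2 at 287 and Sox9 at 228. Each member except Rrh, Stra6 and Rdh11 exceeded Otx2 on this scale. On this scale the members' median was not the highest of the lists examined. The 5 skeletal muscle markers had a median of 17472 normalized counts per kilobase and the 2 red cell markers found had 27461. As counts the order turned, with medians of 50958.3 for the members, 40522 for the skeletal muscle markers and 19718 for the red cell markers.

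**Figure D5:**
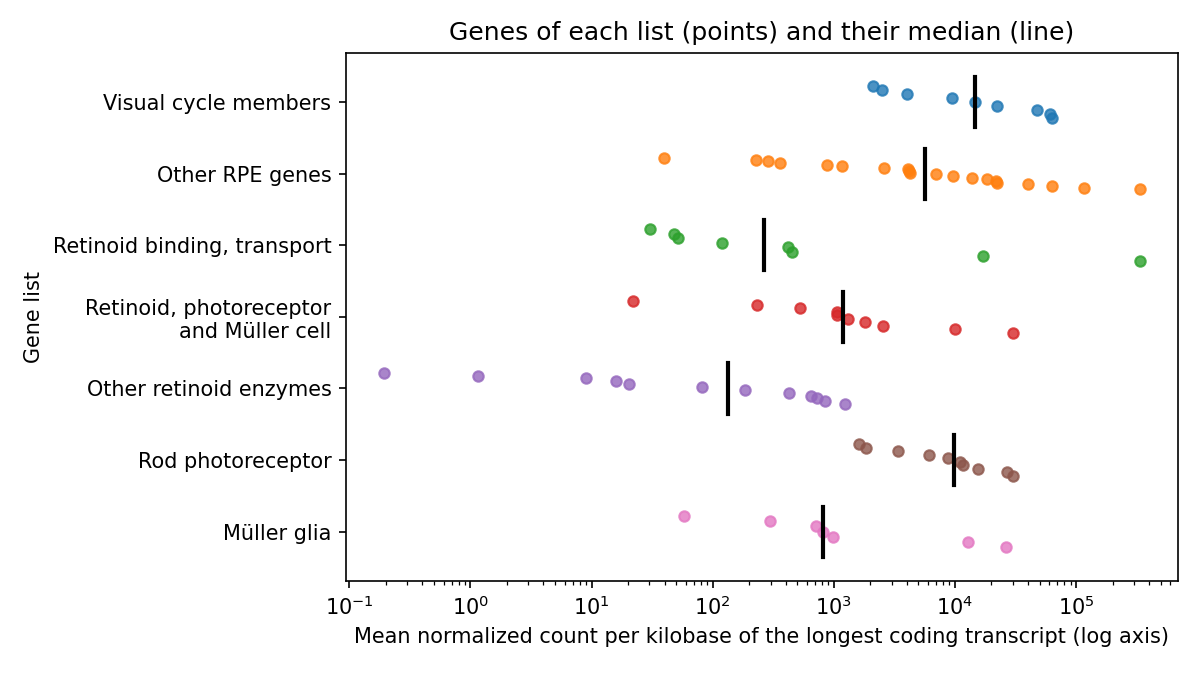
Mean normalized count per kilobase of the longest coding transcript (x axis, log scale) for the genes of 7 lists, 1 point per gene and a black line at the median of each list. The members span 2111 to 63232 around a median of 14701, above the medians of 5624 for the other RPE genes, 9860.1 for rod genes and 819 for Müller glia genes, and the other retinoid enzymes lie lowest of these lists.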

How the data were processed

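Per the labels and the study's methods, ribosomal RNA was depleted and poly(A) RNA selected, libraries were made with a stranded kit, and read pairs were trimmed with BBDuk, mapped with STAR to GRCm38 transcripts (Ensembl release 82), quantified with Sailfish as TPM and turned by the authors into normalized counts by total count. The deposited signal used here is the authors' mean normalized count over all 6 libraries, named baseMean, the mean that DESeq2 reports. Whether DESeq2's own normalization or that by total count lies behind it is not certain. The other 5 columns hold the authors' own comparison of young with aged mice by DESeq2 (log2 fold change, standard error, statistic, p-value and adjusted p-value) and were not used, so no test was made and no age difference is reported. Because the methods pass through TPM, how far the counts still scale with transcript length is not certain. The median mean count of coding genes was 723 in the third with the shortest transcripts and 1009 in the third with the longest, and per kilobase it was 485 and 166.

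Genes were matched by symbol or older symbol to GENCODE M21 of GRCm38 (30934 matched). Levels per kilobase used the longest coding transcript. Positions used genes with a mean of at least 10. Words of 50 bases were compared with all GENCODE transcripts, and coding sequences were aligned globally (Biopython 1.88; match 2, mismatch -1, gap opening -5, gap extension -0.5). Motifs were sought on both strands of RefSeq start windows. Code was tested on simulated data and run in Python 3.11.15 with pandas 2.3.3 and matplotlib 3.10.9. Each member was named with its values, and of the other lists the highest, the lowest and most of the retinoid genes (a few are not reported here), with Otx2, Mitf, Sox9, Lhx2, Dct, Pmel, Aqp4, Vim and Slc1a3 named after their values were seen. The members and lists were chosen with earlier results of these data known.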

Additional observations from a re-analysis of the deposited data

How the results depend on the processing

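No paired analysis was possible because 1 pooled mean per gene was used, and for the same reason no library could be left out. With the mean transcript length in place of the longest coding transcript, the median level of the 9 genes moved from 14701 to 19016 normalized counts per kilobase, and with the coding length, taken from the annotation, to 51547. The lowest position among the 9, that of Rdh11, moved from 94.2% to 95.8% over all genes with a mean above 0, to 92.5% over genes with a mean of at least 100 and to 90.2% when genes were ranked per kilobase. The share of all counts held by the 9 genes moved from 1.64% to 1.68% without mitochondrial and hemoglobin genes and to 2.03% without the 100 highest other genes. The means are over both age groups, and their error between mice is unknown.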

Other observations

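Tissue beside the RPE was represented as well. The 5 skeletal muscle markers had means from 19289 normalized counts for Mb to 48944 for Myh4 and held 0.457% of all counts, and the 5 fibroblast markers ran from 5456 for Pdgfra to 84651 for Dcn. The 6 endothelial markers of the choroid ran from 717 for Cdh5 to 7925 for Emcn, and the 4 macrophage markers from 3067 for Cd68 to 13165 for C1qa. Of the 4 red cell markers 2 were found by symbol, Alas2 with 1591 and Hba-a1 with 37845 normalized counts. Among 6 housekeeping genes the means ran from 145 for Polr2a, the largest subunit of RNA polymerase II, to 190405 for Eef1a1.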
